A study of Mus musculus with 8 samples.

Results

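Integrins are the cell surface receptors, and laminins the basement membrane proteins, through which cells hold on to the matrix around them. The 34 genes described here were taken by symbol from the integrin and laminin families, by a list drawn up with earlier results of these data known: 16 integrin alpha chains, 8 integrin beta chains, 5 laminin alpha, 3 laminin beta and 2 laminin gamma chains, out of 23420 gene symbols counted. RNA was sequenced from day 3 mouse uterine stromal cells of 2 genotypes, labelled Erbb3f/f and Erbb3d/d, with 4 libraries of each. In the usual notation these are animals with a floxed and with a deleted Erbb3 gene, which encodes a receptor of the EGF receptor family, and the Erbb3f/f cells are the controls. The Cre line, the event from which day 3 was counted, the strain, the age of the females and any pooling of animals are not given in the sources used here. The labels do not say that the replicates came from separate animals, so p-values measure the spread between these libraries, which may be technical.

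An integrin is a pair of 1 alpha and 1 beta chain, and the pair decides which ligand is bound: collagen, laminin, fibronectin or other proteins with an RGD motif, or counter-receptors on other cells. A laminin is a cross-shaped trimer of 1 alpha, 1 beta and 1 gamma chain that polymerises in the basement membrane, where the alpha chain carries the main integrin-binding end. In the uterus, basement membranes underlie the luminal and glandular epithelium and surround smooth muscle cells and vessels, and decidualising stromal cells also make one around themselves.

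Reads assigned to genes ran from 8578575 to 12854367 a library. Levels are given as CPM, a gene's reads relative to all reads in genes of its library after trimmed-mean scaling, and levels of different genes are compared only as CPM per kb of exon. The read count of Erbb3 was the check of the labels: Erbb3 stood at 7.40, 10.6, 8.24 and 12.3 CPM in the Erbb3f/f libraries and at 7.36, 14.3, 17.6 and 16.2 CPM in those labelled Erbb3d/d, a log2 difference of 0.53 (SE 0.28) and an adjusted p of 0.484. Erbb3 thus did not fall with the d/d label, and reads over the whole gene need not report a deleted exon. Every difference below is therefore between labels, as Erbb3d/d minus Erbb3f/f on the log2 scale. Marker lists of other cell types were measured in the same libraries, and in edgeR none of their genes passed an adjusted p of 0.05, while DESeq2 called 5 epithelial, 2 smooth muscle and 2 stromal markers. Summed over 18 genes, epithelial markers came to 1560.5, 1376, 1075 and 1789.5 CPM in Erbb3f/f and 1694, 1729.9, 2872 and 2868 CPM in the libraries labelled Erbb3d/d, and 13 of the 18 were higher at an unadjusted p under 0.05. Smooth muscle markers (12 genes) summed to 1863 to 3116 and 3028 to 6346 CPM, with 11 of 12 higher, and stromal markers (14 genes) to 14203 to 18025 and 12088 to 16459.7 CPM, with 5 of 14 lower. None of these 3 lists held a gene at 0 in all libraries. Endothelial markers summed to 549 to 922 and 564 to 999.8 CPM, immune markers to 1604 to 3624 and 2191 to 2750.0 CPM, mesothelial markers to 45.5 to 162 and 27.4 to 126 CPM, and Schwann cell markers (6 genes) to 51.0 to 77.5 and 48.8 to 91.1 CPM. Of the Schwann cell markers Sox10 had no read in any library, which allows at most 0.350 CPM in the smallest one. In bulk RNA, fewer cells of a type and less RNA per cell cannot be told apart. The epithelial and smooth muscle sums were higher on average under the Erbb3d/d label. A fit with such markers in the model therefore cannot tell marker level and label apart. What the markers contribute to any difference below was not tested.

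All 34 genes had enough reads to be tested. By the quasi-likelihood test of edgeR, with Benjamini-Hochberg adjustment over 14598 genes, none passed an adjusted p of 0.05, and 0% of all genes tested did. At an unadjusted p under 0.05 there were 6 of 34, against 11.6% of all genes: 5 had a higher level under the Erbb3d/d label (Itga3, Itga8, Itga11, Lama5 and Lamb3, against 6.64% of all genes) and 1 was lower (Itgb8, against 4.97%). The genotypes did not overlap in CPM for 3 members, against 5.05% of all genes. These were Itga3 and Lama5, higher (2.57% of all genes), and Itgb8, lower (2.48%). DESeq2 on the same counts called Itga3, Lama5 and Itgb8 at an adjusted p under 0.05, and 1.79% of all genes. The median log2 difference of the members was 0.12, with 20 above and 14 below 0, and that of all genes tested was -0.01.

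**Figure D1:**
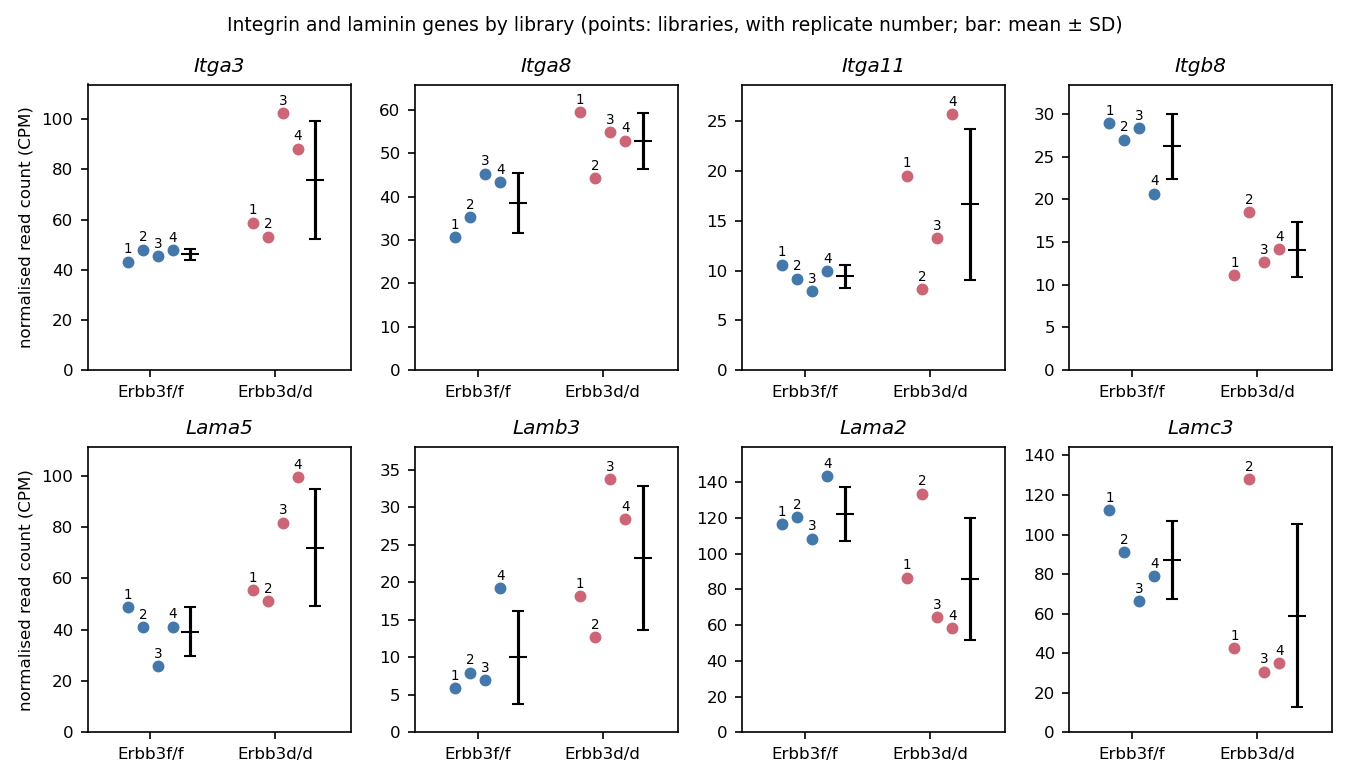
Normalised read count (CPM, linear axis from 0) of 8 integrin and laminin genes in each of the 8 libraries, numbered by replicate, with a bar for the mean ± SD of the 4 libraries of a labelled genotype. Itga3 (43.2 to 48.0 against 53.1 to 102), Lama5 and Itgb8 are the members whose labelled genotypes do not overlap.

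The integrin beta chains were dominated by Itgb1, the partner of most alpha chains, which was also the most abundant of the 34 genes at 142 CPM per kb over the 8 libraries. Itgb1 measured 509.8, 550.0, 555 and 537 CPM in Erbb3f/f and 591, 543, 523 and 513 CPM in the libraries labelled Erbb3d/d, with a log2 difference of 0.013 (SE 0.088). It made up 59.8% ± 3.93 (SD, n = 4) of the summed integrin beta level per kb in Erbb3f/f and 59.8% ± 5.61 (SD, n = 4) in the libraries labelled Erbb3d/d. The ranges overlapped.

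The beta chain that stood apart was Itgb8 (chromosome 12, 119158022 to 119238802, minus strand, in GRCm38, as are the gene positions below), which pairs with the alpha v chain and binds the latent form of TGF-beta. Itgb8 was at 28.9, 27.0, 28.3 and 20.7 CPM in Erbb3f/f and at 11.1, 18.5, 12.7 and 14.2 CPM in the libraries labelled Erbb3d/d. All 4 libraries labelled Erbb3d/d lay below the lowest Erbb3f/f library. The means were 26.2 ± 3.79 CPM and 14.1 ± 3.20 CPM (SD, n = 4), a log2 difference of -0.90 (SE 0.18), with an unadjusted p of 0.000503 and an adjusted p of 0.183 in edgeR, the smallest adjusted p among the 34 members. DESeq2 gave an adjusted p of 0.00232, and over all alternative fits Itgb8's adjusted p ran from 0.00232 to 1.0. With the mean log2 level of the epithelial markers in the model the difference was -0.72 (SE 0.27), and with that of the smooth muscle markers -0.79 (SE 0.26).

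Per kb, Itgb5 and Itgb3, which also pair with alpha v, were above Itgb8 (2.40 CPM per kb), and Itgb6 (1.13) was below it. Itgb5, the second most abundant beta chain at 36.3 CPM per kb, was at 104, 89.5, 151 and 107 CPM and 129.7, 103, 149 and 151 CPM, and the labelled genotypes overlapped. Itgb3, best known from platelets and angiogenic vessels, ran from 73.4 to 121 CPM, and Itgb6, an epithelial chain that also binds latent TGF-beta, from 4.22 to 11.4 CPM. Itgav itself measured 131, 149, 163 and 158 CPM in Erbb3f/f and 158, 159, 183 and 182 CPM in the libraries labelled Erbb3d/d, a log2 difference of 0.18 (SE 0.097) with an adjusted p of 0.494. Among the 4 beta chains that pair mainly with alpha v, Itgb8 was the single member below an unadjusted p of 0.05.

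In the collagen-binding alpha chains, which pair with Itgb1, the largest difference was that of Itga11, a fibroblast receptor for fibrillar collagen (chromosome 9, 62677826 to 62783982, plus strand). Itga11 stood at 10.6, 9.20, 7.93 and 9.94 CPM in Erbb3f/f and at 19.5, 8.16, 13.2 and 25.7 CPM in the libraries labelled Erbb3d/d. Replicates 1, 3 and 4 labelled Erbb3d/d were above every Erbb3f/f library, and replicate 2 was within their range. The log2 difference was 0.83 (SE 0.31), with an unadjusted p of 0.0215 and an adjusted p of 0.351 in edgeR. It was 1.05 (SE 0.23) without Erbb3d/d replicate 2, 0.44 (SE 0.42) with the epithelial covariate and 0.29 (SE 0.41) with the smooth muscle covariate. The part of the smooth muscle markers in the Itga11 difference was not tested beyond that fit. Itga1, found on smooth muscle and mesenchymal cells, ran from 11.9 to 26.0 CPM, Itga10 from 5.36 to 17.1 CPM and Itga2, mainly epithelial, from 1.57 to 6.31 CPM, and the labelled genotypes overlapped in each.

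Among the laminin-binding alpha chains the labelled genotypes separated for Itga3 (chromosome 11, 95044474 to 95076801, minus strand), which encodes the alpha chain of the epithelial receptor for laminins with an alpha 3 or alpha 5 chain. Itga3 was at 43.2, 48.0, 45.4 and 47.8 CPM in Erbb3f/f, a narrow range, and at 58.8, 53.1, 102 and 88.3 CPM in the libraries labelled Erbb3d/d. Replicates 3 and 4 were the high ones, and replicates 1 and 2 lay just above the Erbb3f/f range. The means were 46.1 ± 2.26 CPM and 75.7 ± 23.6 CPM (SD, n = 4). This gave a log2 difference of 0.72 (SE 0.19), with an unadjusted p of 0.00386 and an adjusted p of 0.279 in edgeR, and of 0.0384 in DESeq2. Over all alternative fits the adjusted p of Itga3 ran from 0.0355 to 1.0. Replicates 3 and 4 were also the libraries with the highest epithelial marker sums. With those markers in the model the Itga3 difference was 0.22 (SE 0.21), with an unadjusted p of 0.314. It was 0.90 (SE 0.27) with the smooth muscle covariate and 0.81 (SE 0.18) with the immune markers in the model. Epithelial marker level and label cannot be told apart here, and the part of the epithelial markers was not tested.

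Itga6, the alpha chain of the other epithelial laminin receptors, ran from 55.9 to 74.6 CPM in Erbb3f/f and from 50.8 to 93.2 CPM in the libraries labelled Erbb3d/d. Its partner Itgb4, which anchors hemidesmosomes, ran from 10.5 to 16.9 and 11.7 to 18.1 CPM. Itga7, the laminin receptor of muscle, ran from 4.63 to 11.6 and 4.64 to 14.4 CPM. All 3 genes overlapped between the labelled genotypes and had an unadjusted p above 0.05.

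Of the fibronectin and RGD-binding alpha chains, Itga5 and Itgav were the most abundant of the 16 alpha chains, and Itga8 was lower (7.88 CPM per kb). Itga5, the classical fibronectin receptor chain, had 23.0 CPM per kb and Itgav 22.7 CPM per kb over the 8 libraries, a difference smaller than the spread between libraries. Itga5 was at 105, 76.6, 82.4 and 100.1 CPM in Erbb3f/f and at 139, 92.5, 94.2 and 115 CPM in the libraries labelled Erbb3d/d, and the ranges overlapped. Itga8 (chromosome 2, 12106632 to 12301922, minus strand), a mesenchymal chain that binds nephronectin in the epithelial basement membrane, was also among the 6 genes. It was at 30.7, 35.2, 45.4 and 43.4 CPM in Erbb3f/f and at 59.6, 44.3, 54.9 and 52.9 CPM in the libraries labelled Erbb3d/d, where the lowest library, replicate 2, was just under the highest Erbb3f/f library. The log2 difference of Itga8 was 0.45 (SE 0.15), with an unadjusted p of 0.00992 and an adjusted p of 0.311 in edgeR. It was 0.49 (SE 0.21) with the epithelial covariate and 0.57 (SE 0.22) with the smooth muscle covariate. The libraries did not keep strand, and 372 exonic bases of Itga8 are shared with E030013I19Rik on the opposite strand, so reads there cannot be told apart. The gene for its ligand, Npnt, was higher in the libraries labelled Erbb3d/d at an unadjusted p of 0.0209 (log2 difference 0.72 (SE 0.26), adjusted p 0.347).

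**Figure D2:**
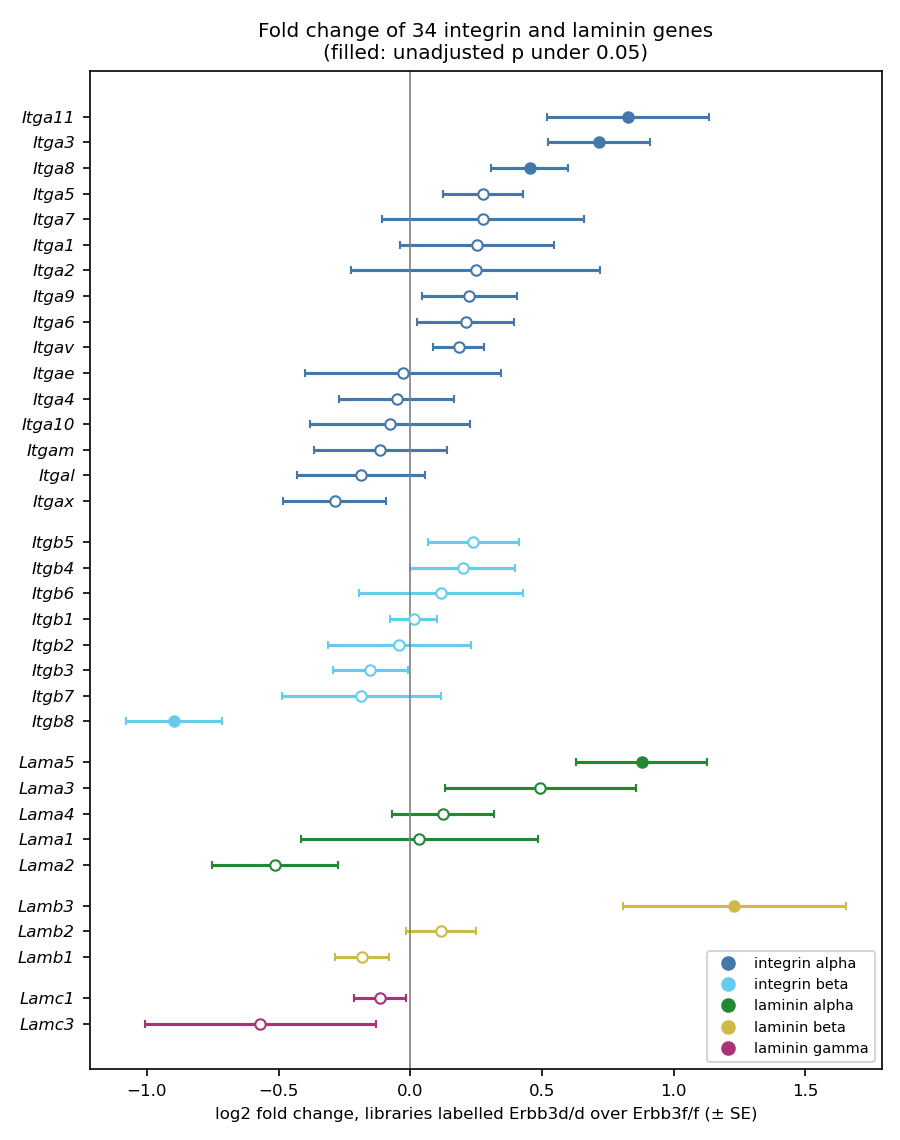
Log2 difference, libraries labelled Erbb3d/d over Erbb3f/f, with its SE for each of the 34 genes by class, filled where the unadjusted p was under 0.05. Itgb8 (-0.90) and Lamb3 (1.23) have the lowest and the highest value.

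Among the laminin alpha chains, the mean share of Lama2 was lower and that of Lama5 higher under the Erbb3d/d label, a difference in shares that was not itself tested, while their sum differed by less than the spread between libraries. Summed over the 5 genes, laminin alpha came to 21.9 ± 1.74 CPM per kb in Erbb3f/f and 21.9 ± 1.91 CPM per kb in the libraries labelled Erbb3d/d (SD, n = 4). Lama2, the alpha chain of muscle and stromal laminin (chromosome 10, 26980036 to 27619758, minus strand), made up 56.7% ± 4.07 of that sum in Erbb3f/f and 39.5% ± 13.1 in the libraries labelled Erbb3d/d. Lama5 (chromosome 2, 180176373 to 180225859, minus strand), the main alpha chain of mature epithelial and vascular basement membranes, made up 15.5% ± 3.03 and 29.2% ± 10.3. The ratio of Lama2 to Lama5 per kb was 2.78, 3.41, 4.87 and 4.04 in Erbb3f/f and 1.82, 3.04, 0.918 and 0.683 in the libraries labelled Erbb3d/d, so that Lama5 was the higher of the pair in replicates 3 and 4 alone. Replicate 2 lay within the Erbb3f/f range.

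Lama5 had a higher and Lama2 a lower mean level under the Erbb3d/d label, neither at an adjusted edgeR p under 0.05. The product of Itga3 binds laminins with the alpha 5 chain. The stretches just upstream of the RefSeq transcript starts are shown for Lama5, Lama2 and Itga3. They are at chr2:180225860-180226109, chr10:27616943-27617192 and chr11:95076802-95076964 (GRCm38.p6, all on the minus strand, from RefSeq, the last without the 87 bases nearest the start, in which GENCODE places an exon), hold no exon annotated in GENCODE vM21 and are printed in the direction of the gene. Capitals mark each GC box, GGGCGG or its reverse complement.
Lama5: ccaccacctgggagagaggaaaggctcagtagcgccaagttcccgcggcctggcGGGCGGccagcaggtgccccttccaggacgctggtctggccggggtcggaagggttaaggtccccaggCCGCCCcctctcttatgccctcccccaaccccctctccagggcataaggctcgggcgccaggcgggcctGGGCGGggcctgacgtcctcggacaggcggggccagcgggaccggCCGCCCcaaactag
Lama2: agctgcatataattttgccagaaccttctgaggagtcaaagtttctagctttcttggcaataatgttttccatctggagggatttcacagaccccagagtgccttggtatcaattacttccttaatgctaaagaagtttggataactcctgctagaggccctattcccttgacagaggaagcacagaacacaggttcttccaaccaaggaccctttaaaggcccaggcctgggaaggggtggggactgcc
Itga3: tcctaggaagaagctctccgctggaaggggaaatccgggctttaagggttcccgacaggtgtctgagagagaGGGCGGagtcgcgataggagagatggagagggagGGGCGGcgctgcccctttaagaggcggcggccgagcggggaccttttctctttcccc
Lama5 had 4 GC boxes in 250 bases, Itga3 had 2 in 163 bases and Lama2 had 0 in 250 bases. Itga3 has a further RefSeq start, whose window (chr11:95069199-95069448) is not printed and had 1 GC box and a GC content of 50.8%. In the windows of 250 bases before each start, the GC content was 72.4% for Lama5 and 47.2% for Lama2. GENCODE places the Lama2 gene from 26980036 to 27619758, so the Lama2 stretch lies inside the gene. The printed stretches of Lama5 and Itga3 lie just outside theirs, so Lama2 is not compared with them like for like. Both strands were searched: a GC box was in 9 of 25 windows of 22 members and in 32.7% of all 32851 RefSeq windows, CCAAT in 4 and in 33.8%, TATAAA in 0 and in 12.4%, the AP-1 site TGANTCA in 1 and in 6.75%, and the steroid receptor palindrome in 0 and in 0.387%. These matches describe letters and not bound sites.

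Lama5 was at 48.7, 41.0, 25.8 and 41.2 CPM in Erbb3f/f and at 55.3, 51.0, 81.6 and 99.3 CPM in the libraries labelled Erbb3d/d, with no overlap and with replicates 3 and 4 highest. The means were 39.2 ± 9.59 CPM and 71.8 ± 22.8 CPM (SD, n = 4), a log2 difference of 0.88 (SE 0.25) at an adjusted p of 0.286 in edgeR and of 0.0359 in DESeq2, and a range from 0.0359 to 1.0 over all alternative fits. With the epithelial covariate the Lama5 difference was 0.16 (SE 0.19) with an unadjusted p of 0.409, and with the smooth muscle covariate it was 0.68 (SE 0.35).

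Lama2 was at 116, 120.4, 108 and 143 CPM in Erbb3f/f and at 86.6, 134, 64.5 and 58.5 CPM in the libraries labelled Erbb3d/d. Replicates 1, 3 and 4 were below every Erbb3f/f library, while replicate 2 was within their range. The log2 difference of Lama2 was -0.51 (SE 0.24), at an adjusted edgeR p of 0.449. Once Erbb3d/d replicate 2 was left out it was -0.80 (SE 0.15) with an adjusted p of 0.0345, and over all alternative fits the adjusted p of Lama2 ran from 0.0345 to 1.0. Leaving out that library raised the calls over all genes to 1.75%, with 18.9% at an unadjusted p under 0.05, and called 4 members: Itga3, Itgb8, Lama2 and Lamc3. With the epithelial covariate the Lama2 difference was -0.23 (SE 0.30). It was -0.45 (SE 0.36) with the smooth muscle covariate and -0.76 (SE 0.21) with the immune one.

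Lama4, the alpha chain of endothelial and mesenchymal laminin, had 5.37 CPM per kb over the 8 libraries. Its mean was above that of Lama5 in Erbb3f/f (5.14 against 3.44 CPM per kb) and below it under the Erbb3d/d label (5.61 against 6.31). In Erbb3d/d replicates 1 and 2 Lama4 was still above Lama5 (7.76 against 4.85 and 4.61 against 4.48 CPM per kb), and it was below in replicates 3 and 4 alone. Lama4 was at 32.4, 31.7, 33.4 and 26.9 CPM and 46.9, 27.8, 24.2 and 36.6 CPM, with overlap. Lama3, an epithelial laminin chain, ran from 4.55 to 13.2 CPM in Erbb3f/f and from 6.18 to 16.7 CPM in the libraries labelled Erbb3d/d. Lama1, a chain of embryonic basement membranes, was the lowest of the 34 genes at 0.678 to 1.93 CPM, with a log2 difference of 0.034 (SE 0.45).

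**Figure D3:**
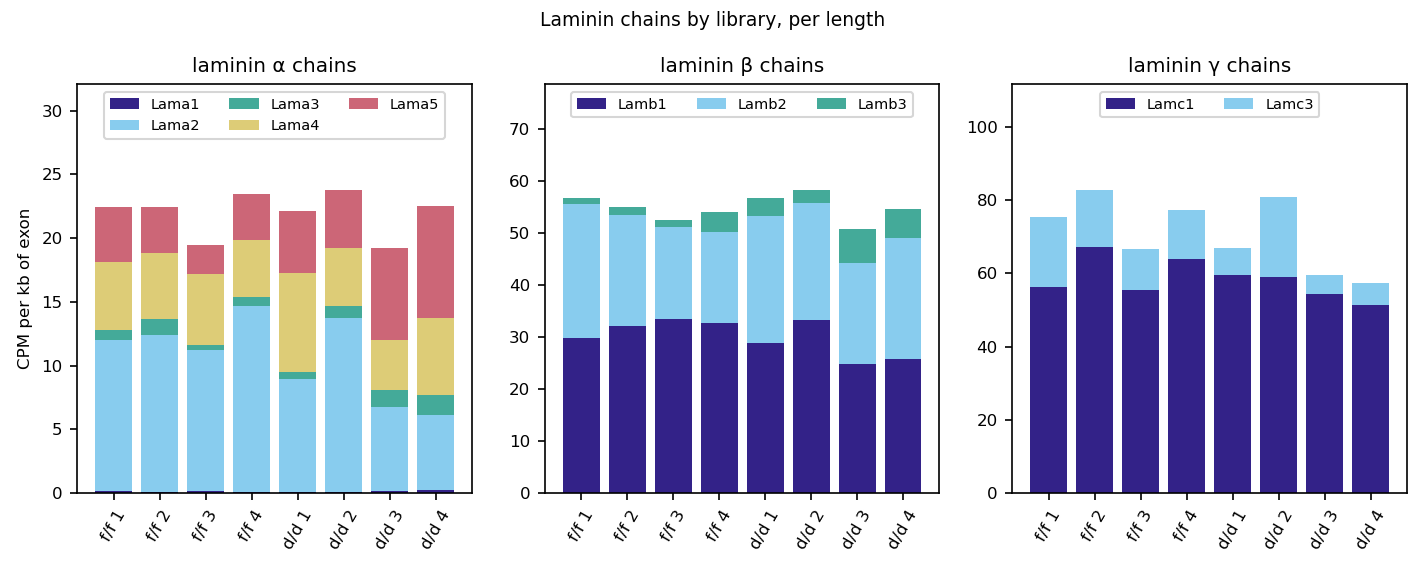
Level per length (CPM per kb of exon) of the laminin alpha, beta and gamma chains in each library, stacked by gene. The alpha total is alike in all 8 libraries, and in Erbb3d/d replicates 3 and 4 the Lama5 segment is taller than the Lama2 segment.

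In the laminin beta chains, Lamb3 (chromosome 1, 193207699 to 193343878, plus strand), a beta chain of the laminin that anchors epithelia at hemidesmosomes, had the largest log2 difference of the 34 genes. It was at 5.94, 7.95, 6.98 and 19.2 CPM in Erbb3f/f and at 18.2, 12.7, 33.8 and 28.4 CPM in the libraries labelled Erbb3d/d. Erbb3f/f replicate 4 was above replicates 1 and 2 labelled Erbb3d/d, so the ranges overlapped. The difference was 1.23 (SE 0.42), with an unadjusted p of 0.0169 and an adjusted p of 0.337 in edgeR. It was 0.25 (SE 0.37) with the epithelial covariate, 1.63 (SE 0.62) with the smooth muscle one and 1.46 (SE 0.39) with the immune one. Lamb3 made up 3.60% ± 2.25 of the summed laminin beta level per kb in Erbb3f/f and 8.41% ± 3.91 in the libraries labelled Erbb3d/d (SD, n = 4).

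The 2 widespread beta chains were far above Lamb3. Lamb1, the common beta chain, had 30.1 CPM per kb and was at 174, 187, 195 and 191 CPM in Erbb3f/f and at 169, 195, 145 and 150.3 CPM in the libraries labelled Erbb3d/d. Lamb2, the beta chain of muscle and vessel basement membranes, had 21.5 CPM per kb and was at 145, 121, 99.5 and 99.2 CPM and 137, 126, 109 and 131 CPM. Both overlapped between the labelled genotypes, with log2 differences of -0.18 (SE 0.10) and 0.12 (SE 0.13).

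Lamc1, the gamma chain of most laminins, was the most abundant laminin gene at 58.4 CPM per kb. It was at 429, 512, 422 and 487 CPM in Erbb3f/f and at 454, 449.9, 414 and 392 CPM in the libraries labelled Erbb3d/d, with overlap. Lamc3 (chromosome 2, 31887291 to 31946539, plus strand), a gamma chain of more restricted expression, was at 112, 91.1, 66.2 and 79.1 CPM in Erbb3f/f and at 42.6, 128, 30.7 and 35.0 CPM in the libraries labelled Erbb3d/d. Replicates 1, 3 and 4 were below every Erbb3f/f library and replicate 2 was above every one. For Lamc3 the log2 difference was -0.57 (SE 0.44), at an adjusted edgeR p of 0.650. Once Erbb3d/d replicate 2 was left out it was -1.27 (SE 0.19) with an adjusted p of 0.0171, and over all alternative fits that p ran from 0.0171 to 1.0. With the epithelial covariate the Lamc3 difference was -0.045 (SE 0.58). It was -0.53 (SE 0.62) with the smooth muscle covariate and -1.20 (SE 0.25) with the immune one.

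**Figure D4:**
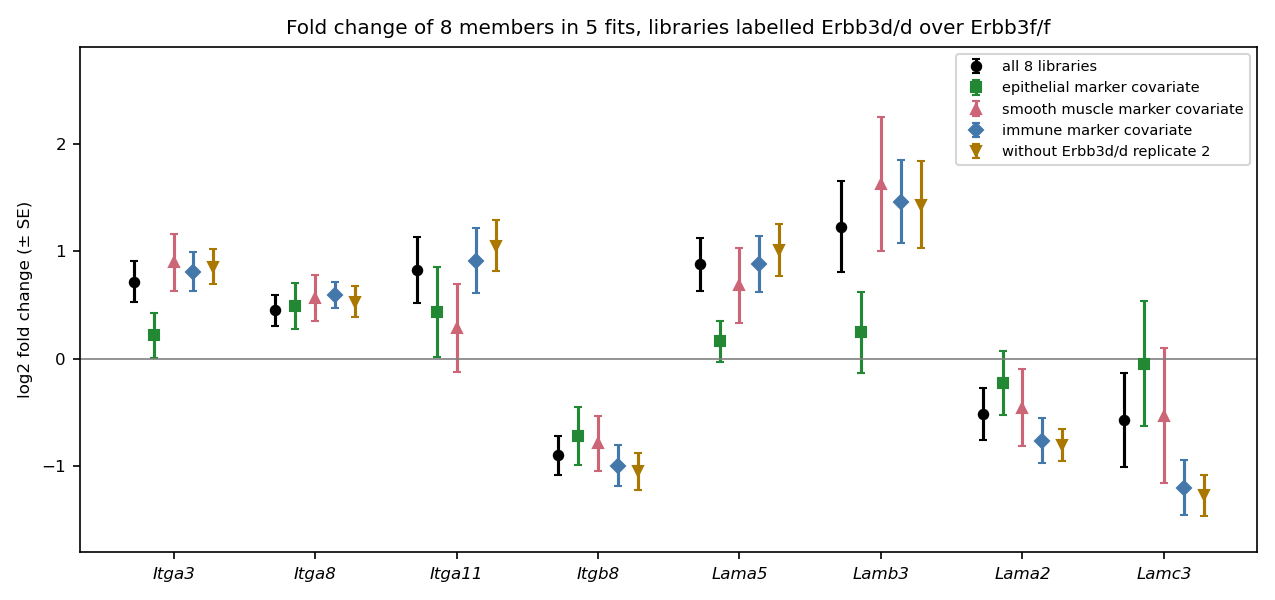
Log2 difference with its SE for 8 genes in 5 fits: all 8 libraries, the same with the mean log2 level of epithelial, smooth muscle or immune markers as a covariate, and without Erbb3d/d replicate 2. With the epithelial covariate Itga8 and Itgb8 are at 0.49 and -0.72. Lama5, Itga3 and Lamb3 are at 0.16, 0.22 and 0.25 there, against 0.88, 0.72 and 1.23 in the fit of all 8 libraries. The same genes are at 0.68, 0.90 and 1.63 with the smooth muscle covariate and at 0.88, 0.81 and 1.46 with the immune one. Epithelial marker level and label cannot be told apart, and the cause was not tested.

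Across the members, 3 of 34 were under an unadjusted p of 0.05 with the epithelial covariate (Itga2, Itga8 and Itgb8), against 3.77% of all genes. The Itga2 difference had the opposite sign there. With the immune covariate, edgeR called 5 members at an adjusted p under 0.05 (Itga3, Itga8, Itgb5, Itgb8 and Lamc3) and 2.32% of all genes.

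The chains of leukocyte integrins varied widely between libraries of the same label, and the labelled genotypes overlapped. Itgb2, the common beta chain of leukocytes, was at 45.9, 62.1, 92.8 and 78.4 CPM in Erbb3f/f and at 56.6, 42.2, 90.3 and 81.9 CPM in the libraries labelled Erbb3d/d. Its partners Itgal, of lymphocytes, Itgam, of myeloid cells, and Itgax, of dendritic cells and macrophages, ran over the 8 libraries from 31.9 to 72.1 CPM, from 25.4 to 65.5 CPM and from 11.3 to 24.9 CPM. Itgb7, a chain of gut-homing and intraepithelial lymphocytes, ran from 18.2 to 44.7 CPM, and its partner Itgae from 1.69 to 5.02 CPM. Summed, Itgb2 and Itgb7 came to 65.9, 98.2, 138 and 119 CPM and 83.1, 60.4, 134 and 118 CPM. The lowest sums were those of Erbb3d/d replicate 2 and Erbb3f/f replicate 1, and the highest that of Erbb3f/f replicate 3. The immune marker sum was also highest in Erbb3f/f replicate 3, but lowest in Erbb3f/f replicates 2 and 4 (1604 and 2149 CPM). All 6 genes had a log2 difference below 0, from -0.29 to -0.028, and none had an unadjusted p under 0.05. The differences of Itgal, Itgam, Itgae, Itgb2 and Itgb7 changed sign with the immune covariate. Itga4 and Itga9, which bind VCAM1, osteopontin and tenascin, ran from 58.1 to 115 CPM and 31.1 to 63.5 CPM, and overlapped. Itga4 shares 1124 exonic bases with Cerkl on the opposite strand, and Itga7 shares 9 with Mettl7b.

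**Figure D5:**
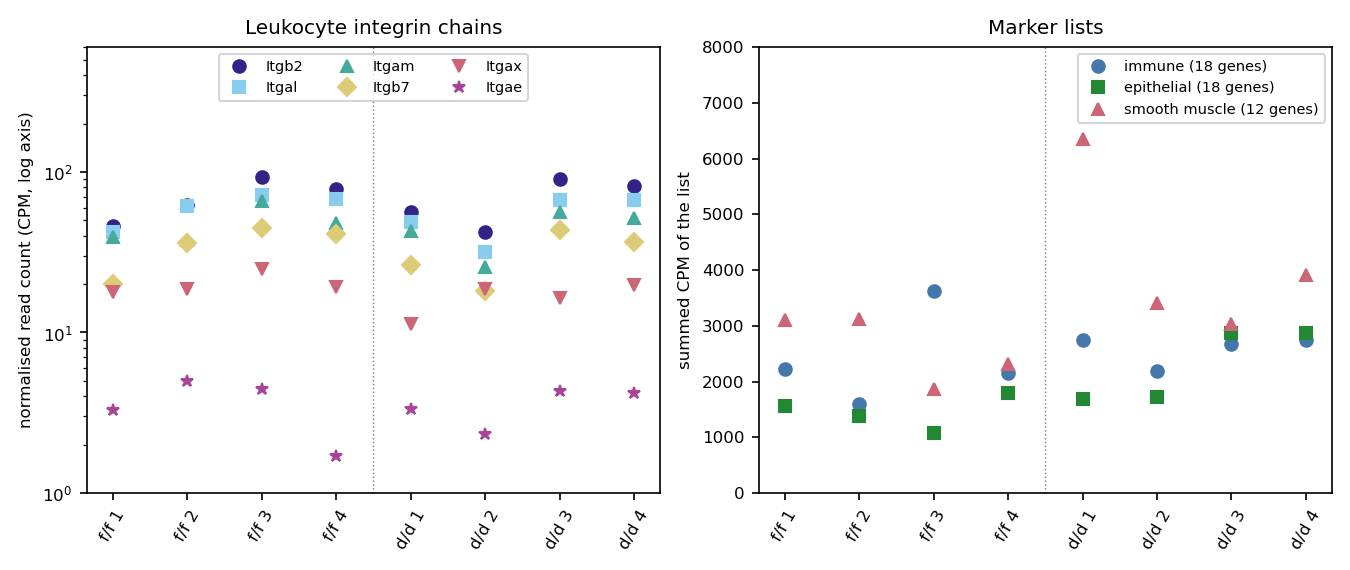
Left, normalised read count (CPM, log axis) of 6 leukocyte integrin chains in each library. Right, summed CPM of the immune, epithelial and smooth muscle marker lists: Itgb2, Itgal, Itgam and Itgb7 are lowest in Erbb3d/d replicate 2, and the epithelial sum is highest in Erbb3d/d replicates 3 and 4.

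The genes that act with these receptors were read from further gene lists. Of 24 genes of integrin activation and the link to actin (talins, kindlins, tensins, kinases and adaptors), 5 were higher at an unadjusted p under 0.05 and 0 were lower, against 6.64% and 4.97% of all genes. Their median log2 difference was 0.13, against -0.01 for all genes. The labelled genotypes did not overlap for 3 of the 24 (Tln2, Fermt2 and Tns2), all higher, against 2.57% of all genes. Tln2, a talin that switches integrins on, was at 40.0, 50.6, 40.8 and 43.0 CPM and 67.1, 51.5, 54.9 and 57.3 CPM. Its log2 difference was 0.41 (SE 0.12) at an adjusted edgeR p of 0.285. Fermt2, a kindlin that works with talin, had 0.35 (SE 0.12), and the tensins Tns1 and Tns2, which tie integrins to actin, had 0.41 (SE 0.17) and 0.24 (SE 0.085), with adjusted p of 0.326, 0.395 and 0.323. The fifth was Vcl, vinculin, with 0.27 (SE 0.12) and an adjusted p of 0.405. With the smooth muscle covariate the differences were 0.22 (SE 0.15) for Tln2, 0.11 (SE 0.15) for Fermt2 and 0.083 (SE 0.15) for Vcl. They were -0.039 (SE 0.16) for Tns1 and 0.19 (SE 0.13) for Tns2, and all 5 had an unadjusted p above 0.05. With the epithelial covariate Tln2 had 0.44 (SE 0.17), Fermt2 0.50 (SE 0.16) and Tns1 0.59 (SE 0.22), each at an unadjusted p under 0.05. Vcl had 0.27 (SE 0.17) and Tns2 0.24 (SE 0.13) there, above that p. The part of either marker list was not tested.

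Of 10 basement membrane partners of laminin, 1 was higher and 2 were lower at an unadjusted edgeR p under 0.05, against 6.64% and 4.97% of all genes. The list median was -0.12, against -0.01 for all genes. Bcam, a receptor for the laminin alpha 5 chain, averaged 24.8 ± 6.70 CPM in Erbb3f/f and 43.2 ± 13.7 CPM in the libraries labelled Erbb3d/d (SD, n = 4). The labelled genotypes overlapped. The log2 difference of Bcam was 0.81 (SE 0.25) with an adjusted p of 0.305. It was 0.17 (SE 0.23) with the epithelial covariate, 1.06 (SE 0.35) with the smooth muscle one and 0.94 (SE 0.23) with the immune one. Nid1, nidogen, which links laminin to collagen IV, was at 2119, 2482, 2249 and 2160.0 CPM and 1626, 2315, 1383 and 1187 CPM, with replicate 2 again within the Erbb3f/f range. Its log2 difference was -0.47 (SE 0.19), at an adjusted edgeR p of 0.382, and -0.68 (SE 0.14) with 0.0399 without that library, within a range from 0.0399 to 1.0 over all alternative fits. With the epithelial covariate the Nid1 difference was -0.13 (SE 0.22). It was -0.41 (SE 0.27) with the smooth muscle covariate and -0.65 (SE 0.17) with the immune one. Col15a1, a collagen of the basement membrane zone, was at 700.3 ± 229 CPM and 341 ± 119 CPM (SD, n = 4), with overlap. Erbb3f/f replicate 3, at 396 CPM, was below Erbb3d/d replicate 1, at 470 CPM. The log2 difference of Col15a1 was -1.04 (SE 0.32). Its adjusted p was 0.309 in edgeR, 0.0279 in DESeq2 and from 0.0279 to 1.0 over all alternative fits.

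Among other integrin ligands, Npnt (above) and Thbs1 were higher and Fbn1 was lower at an unadjusted p under 0.05. Thbs1, thrombospondin, a matrix protein that several integrins bind, was at 884, 835, 1232 and 1039.8 CPM in Erbb3f/f and at 1482, 1236, 1273 and 1674 CPM in the libraries labelled Erbb3d/d, where the lowest was just above the highest Erbb3f/f library. The log2 difference was 0.51 (SE 0.15), at an adjusted p of 0.294 in edgeR, 0.0486 in DESeq2 and from 0.0325 to 1.0 over all alternative fits. Fbn1, fibrillin, an RGD protein of microfibrils, had a log2 difference of -0.38 (SE 0.15) with an adjusted p of 0.384.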

How the data were processed

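Poly(A) RNA was read on an Illumina instrument as 150-base pairs from non-directional libraries, per the labels' protocols. The authors deposited 1 table of raw read counts per gene symbol for each library. HISAT2, SAMtools, HTSeq and StringTie and the builds mm10 and GRCm38 are named per the submitters' processing notes, with no versions. Lines that name no gene were left out: 27.0 to 29.1% of counted entries fell in genes and 48.3 to 50.8% in no feature.

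Counts were scaled by TMM and filtered by expression, and genotypes were compared with edgeR 4.0.16 (quasi-likelihood, robust), adjusted over 14598 genes by the Benjamini-Hochberg method, threshold 0.05. CPM divides by all reads in genes and the TMM factor. Exon lengths and positions are from GENCODE vM21 (GRCm38), and promoter windows from RefSeq (GRCm38.p6). Alternatives were DESeq2 1.42.0, other scalings and filters, leaving out each library, a replicate block, and the mean log2 level of epithelial, smooth muscle or immune markers as a covariate. Genes left out of the fit got an exact permutation test on log2(CPM + 0.5). On simulated data at this size, with 200 genes changed and each gene drawn independently, the edgeR test recovered 62% of genes changed by 2-fold. It also made 13 false calls. Variation shared by many genes within a library was not simulated, so the 62% need not hold for these libraries.

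The members and lists were chosen with earlier results of these data known. Values per library are given for members with an unadjusted p under 0.05 or without overlap and for the 2 most abundant of each class, and up to 4 genes of each other list by the smallest p. Lamc3 and Lama2 belong to the most abundant, and Itgb2 was added after its values were seen. Vcl, the fifth of its list by p, is named beyond that rule. Some results of the list of other integrin ligands are not reported here.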

Additional observations from a re-analysis of the deposited data

Results flagged for a closer look

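In 3 cases 1 library stood far from the other 3 of its labelled genotype, by Dixon's criterion for groups of 4. Itga1 was at 26.0 CPM in Erbb3f/f replicate 2 and at 11.9 to 14.2 CPM in the other Erbb3f/f libraries. Lamb3 was at 19.2 CPM in Erbb3f/f replicate 4 and at 5.94 to 7.95 CPM in the others, and without that library its log2 difference was 1.75. Lamc3 was at 128 CPM in Erbb3d/d replicate 2 and at 30.7 to 42.6 CPM in the others. Chance flags about 1 in 20 groups, which is 3.5 of the 70 groups of libraries examined.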

How the results depend on the processing

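The number of genes called at an adjusted p under 0.05 was 0 in edgeR, 262 in DESeq2, 338 with the immune covariate, 52 with the replicate block and 0 to 259 when 1 library was left out, the highest without Erbb3d/d replicate 2. The members called were 0, 3 in DESeq2, 5 with the immune covariate and 0 to 4 when 1 library was left out. Members at an unadjusted p under 0.05 were 6, and 3 with the epithelial covariate, 10 with the immune covariate, 11 with the replicate block and 5 to 10 when 1 library was left out. Of all genes, 11.6% were under that p in the main fit, 3.77% with the epithelial covariate and 18.9% without Erbb3d/d replicate 2. For the immune covariate and the replicate block that share is not given, so their member counts stand without a comparison. Of 578 member values over 17 alternatives, 525 kept their direction and 53 did not, and 14 of 34 members kept it in all. The log2 differences that changed sign were, with the epithelial covariate, Erbb3 -0.048, Itga2 -1.17, Itga10 0.095, Itga6 -0.23, Itgb6 -0.66, Itgb4 -0.28, Lama1 -0.14 and Lama3 -0.39; with the immune covariate, Itga10 0.024, Itga4 0.057, Itgal 0.024, Itgam 0.15, Itgae 0.052, Itgb2 0.24 and Itgb7 0.080; with the smooth muscle covariate, Itga1 -0.26, Itga7 -0.30, Itga5 -0.034, Itga4 0.28, Itgal 0.077, Itgam 0.22, Itgax 0.092, Itgb1 -0.019, Itgb2 0.45, Itgb7 0.28, Lama4 -0.29, Lamb2 -0.18 and Tns1 -0.039; and with the replicate block, Itgae 0.023. Leaving out 1 library at a time, sign changes fell within these ranges: Itga2 -0.16 to 0.49, Itga10 -0.46 to 0.13, Itga7 -0.098 to 0.63, Itga4 -0.24 to 0.087, Itgam -0.25 to 0.082, Itgae -0.26 to 0.18, Itgb1 -0.031 to 0.043, Itgb6 -0.21 to 0.30, Itgb2 -0.21 to 0.13, Itgb7 -0.38 to 0.0017, Lama1 -0.22 to 0.23 and Lama4 -0.074 to 0.26. The cause was not tested. The labels do not say that the replicate numbers pair animals, so the numbers were not taken as pairs in the main fit. Between the labels, libraries with the same number deviated with correlations of 0.0959 to 0.221, and those with different numbers with -0.296 to 0.302. Of the 8 libraries, 5 correlated best with their own number. Other scalings moved the median of all genes by under 0.1. Lama1, Itga2 and Itgae, the members with the lowest mean CPM, have the fewest reads behind their values.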

Other observations

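Among the ligands and partners, Itgad, a further leukocyte alpha chain, and Madcam1, the gut vessel ligand of the Itgb7 receptors, had too few reads for the fit. Itgad had 18, 7, 9 and 13 reads in the Erbb3f/f libraries and 4, 1, 1 and 12 reads in those labelled Erbb3d/d, with an exact two-sided permutation p of 0.0857 over 70 assignments, of which the smallest possible is 0.0286. Madcam1 had 0 to 7 reads a library.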
